A study of Mus musculus with 32 samples.

Results

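A set of 10 genes that mark blood and lymphatic vessels or help leukocytes leave the blood were followed in ear and back skin of NC/Nga mice, a strain used as a model of atopic dermatitis. They are Selp, Sele, Icam1, Vcam1, Ackr1, Pecam1, Cdh5, Vwf, Lyve1 and Prox1. The members were taken by symbol from the platform annotation, with the row of highest mean over the 32 arrays where a symbol had several, and each of the 10 had 1 row among the 19505 genes named on the array. The study compared mice given HDM, an agent the labels do not spell out and the series title ties to dermatitis, with sham mice, whose treatment the labels do not describe. Each of the 4 groups (HDM ear, sham ear, HDM back skin, sham back skin) held 8 mice, all NC/Nga. The labels give SPF housing for HDM mice, and neither age nor sex is stated in the sources used here. RNA came from 8 mm punches, so a value is an average over every cell type in the punch.

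In inflamed skin, post-capillary venules take up leukocytes in steps. The selectins on the vessel wall let leukocytes roll, chemokines shown on the wall activate their integrins, and ICAM-1 and VCAM-1 then hold the arrested cells before they pass between endothelial cells, where PECAM-1 and VE-cadherin lie. Genes of the selectins, ICAM-1 and VCAM-1 are known targets of NF-kappaB, the transcription factor that TNF and IL-1 switch on. Lymphatic capillaries drain the tissue, carry LYVE-1, a hyaluronan receptor that many tissue macrophages also carry, and keep their identity through the transcription factor PROX1.

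Promoter sequences are shown for Selp, Sele and Icam1, since these adhesion genes rose together in HDM ears. They are the 250 bases before each gene's start in RefSeq (mouse build GRCm38.p6), 5′ to 3′ on the gene's strand, and the entries held promoters for 5 of the 10 members. Capitals mark matches to GGGNNNNNCC, a loose form of the NF-kappaB motif, searched on both strands. Stretches without GGG on either strand are left unmarked, so lower case does not show that a stretch is no NF-kappaB site.
Selp, chr1:164115014-164115263, + strand: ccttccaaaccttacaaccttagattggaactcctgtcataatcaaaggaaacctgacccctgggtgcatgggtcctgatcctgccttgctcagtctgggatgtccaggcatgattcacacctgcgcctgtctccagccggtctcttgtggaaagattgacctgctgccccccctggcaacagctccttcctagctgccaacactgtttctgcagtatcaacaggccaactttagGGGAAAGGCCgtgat
Sele, chr1:164047984-164048233, + strand: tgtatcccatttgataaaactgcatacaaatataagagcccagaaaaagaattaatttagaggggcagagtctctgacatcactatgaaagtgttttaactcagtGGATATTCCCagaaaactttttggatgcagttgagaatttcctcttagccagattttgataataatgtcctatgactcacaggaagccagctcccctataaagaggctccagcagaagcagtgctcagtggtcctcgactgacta
Icam1, chr9:21015690-21015939, + strand: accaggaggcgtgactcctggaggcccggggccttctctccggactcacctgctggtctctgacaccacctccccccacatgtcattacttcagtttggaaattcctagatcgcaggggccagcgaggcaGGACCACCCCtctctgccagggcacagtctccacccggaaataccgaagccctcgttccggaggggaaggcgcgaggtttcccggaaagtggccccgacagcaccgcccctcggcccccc
Counted from the start, the match lay at -15 to -6 in Selp, at -145 to -136 on the opposite strand in Sele, and at -120 to -111 on the opposite strand in Icam1. Of 32851 promoter windows of the same length, 45.8% held this motif, so a match is common. The narrower GGGNNTTTCC, in 1.41% of all windows, was in none of these 3 windows. TTCNNNGAA, the motif of STAT factors, was in 7.02% of all windows, and stood at -42 to -34 in Icam1 and at -140 to -132 in Sele, where it overlaps the capitals. TGANTCA, the AP-1 motif, was in 6.75% of all windows, and stood at -139 to -133 in Selp and at -73 to -67 in Sele. Of the other members with an entry, Prox1, which fell in ear, held GGGNNNNNCC in 1 of its 2 windows, at -198 to -188 (overlapping matches on both strands) and at -46 to -37, and Ackr1, not called in ear, held none. These matches describe letters only.

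HDM and sham mice were compared in ear first, to ask how the agent changed vessel genes there. Group means were compared with limma. A gene counts as called where its p, adjusted over all 22206 tested rows by Benjamini and Hochberg, is under 0.05. In ear 6 of the 10 genes rose (Selp, Sele, Icam1, Vcam1, Pecam1 and Lyve1), Prox1 fell, and Ackr1, Cdh5 and Vwf were not called. Of all tested rows 31.9% were called in ear, 16.4% as higher and 15.5% as lower. The median difference, HDM minus sham, was 1.22 on the log2 scale over the 10 genes and -0.02 over all rows. In bulk tissue, more cells of a type and more RNA per cell cannot be told apart.

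**Figure D1:**
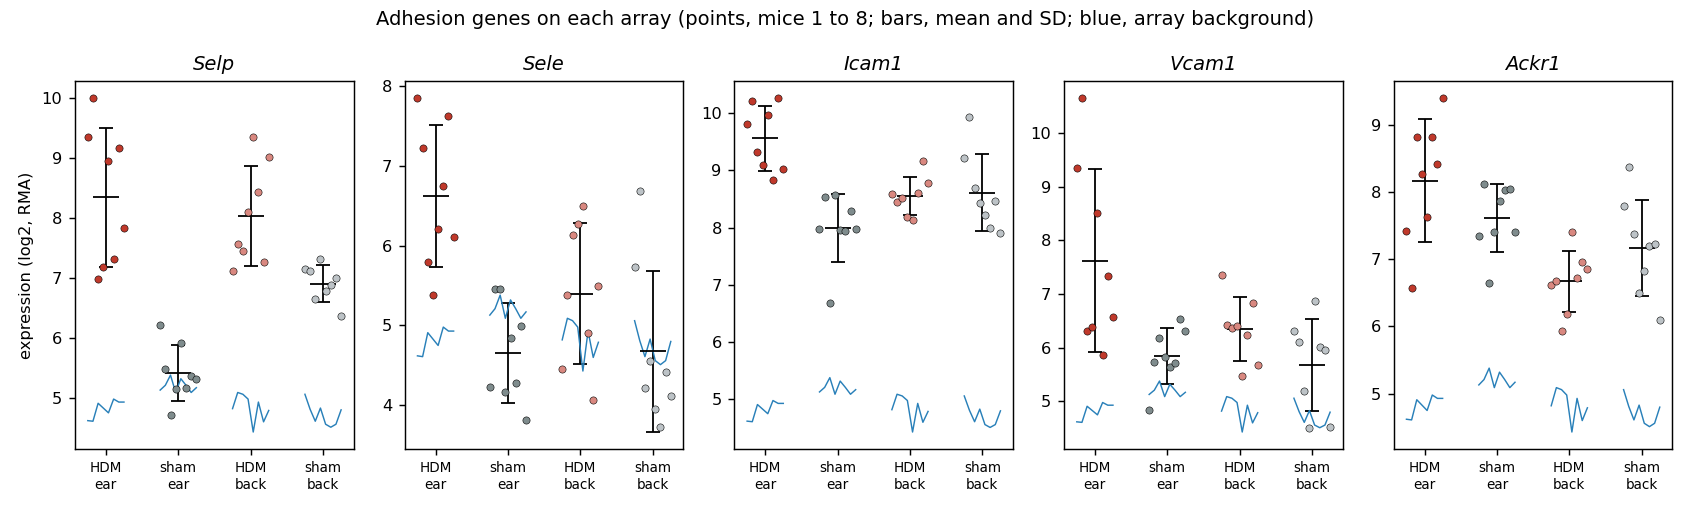
Log2 expression of Selp, Sele, Icam1, Vcam1 and Ackr1 on each of 32 arrays, with points for mice 1 to 8 of a group from left to right, black bars for mean and SD, and blue lines for the background of each array (median of negative controls). Selp and Icam1 in HDM ear lie wholly above sham ear, whereas Ackr1 overlaps.

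Selp encodes P-selectin, which endothelial cells and platelets store and bring to the surface within minutes. On the log2 scale its level ran from 6.98 over a median of 8.39 to 10.01 in HDM ears, and from 4.71 over 5.34 to 6.21 in sham ears. No HDM ear lay as low as any sham ear, and such a gap upward was seen in 4.99% of all rows (a gap downward in 2.66%). The difference was 2.93 ± 0.36 (SE, n = 8 each), a 7.64-fold rise with adjusted p = 2.83e-07 in limma. Of the sham ears, 6 of 8 were above the array background for Selp, and with the array background as a floor the difference was 2.84.

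Sele encodes E-selectin, made by endothelium mainly upon activation. Its level ran from 5.38 over 6.48 to 7.85 in HDM ears, all 8 above background, and from 3.82 over 4.56 to 5.46 in sham ears, where 2 of 8 were above background. The ranges touched, since the lowest HDM ear lay just below sham ears 2 and 3, both at 5.46. The rise was 1.96 ± 0.41 as measured (3.89-fold, adjusted p = 3e-04), and 1.38 with the array background as a floor (adjusted p = 0.000541). That background was 4.61 to 4.98 in HDM and 5.09 to 5.38 in sham ears, a higher cut-off in sham ears. The floored fit called 15862 rows in ear, so its adjusted p cannot be set against the main one.

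Icam1 encodes a ligand of the leukocyte integrins LFA-1 and Mac-1, and inflamed keratinocytes and leukocytes can make it as well as endothelium. HDM ears held 8.83 to 10.27 (median 9.57), and sham ears 6.68 to 8.57 (median 7.97), with no overlap. Icam1 rose by 1.58 ± 0.27 (2.98-fold, adjusted p = 2.45e-05).

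Vcam1, whose product binds the integrin VLA-4 on lymphocytes, monocytes and eosinophils, was the least even of the adhesion genes. Its HDM ear levels ran from 5.86 over 6.96 to 10.66, against 4.84 over 5.78 to 6.54 in sham ears. Mice 1, 2 and 5 stood highest at 9.35, 10.66 and 8.52, while mice 3, 4 and 6 at 6.31, 6.39 and 5.86 lay inside the sham range. The SD was 1.71 in HDM and 0.52 in sham ears. The rise of 1.78 ± 0.49 (3.43-fold) had adjusted p = 0.00475, and adjusted p = 0.0233 at most in the alternatives without covariates.

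Ackr1 encodes a decoy chemokine receptor of venules, which binds and carries chemokines without signalling. Its HDM ear levels ran from 6.57 over 8.34 to 9.40, and its sham ear levels from 6.64 over 7.64 to 8.12. The groups overlapped, and the difference of 0.56 ± 0.32 was not called (95% interval -0.09 to 1.21, adjusted p = 0.201). Without HDM ear mouse 2, the lowest array, it was 0.79 with adjusted p = 0.045.

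Pecam1 and Cdh5 encode PECAM-1 and VE-cadherin, which sit at endothelial cell contacts. PECAM-1 is also on platelets and many leukocytes. Pecam1 ran from 10.17 to 11.24 in HDM ears (median 10.75) and from 9.36 to 10.36 in sham ears (median 9.86), a narrow overlap, and rose by 0.87 ± 0.18 (1.83-fold, adjusted p = 0.000324). Cdh5, the more strictly endothelial gene of this pair, ran from 8.58 to 10.78 in HDM ears and from 8.41 to 10.30 in sham ears. Its difference of 0.46 ± 0.28 was not called (interval -0.12 to 1.04, adjusted p = 0.248). Vwf encodes von Willebrand factor, the clotting protein stored with P-selectin in Weibel-Palade bodies. It averaged 6.68 ± 0.51 in HDM ears and 6.62 ± 0.67 in sham ears (SD), a difference of 0.07 ± 0.28 (SE, interval -0.51 to 0.64).

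**Figure D2:**
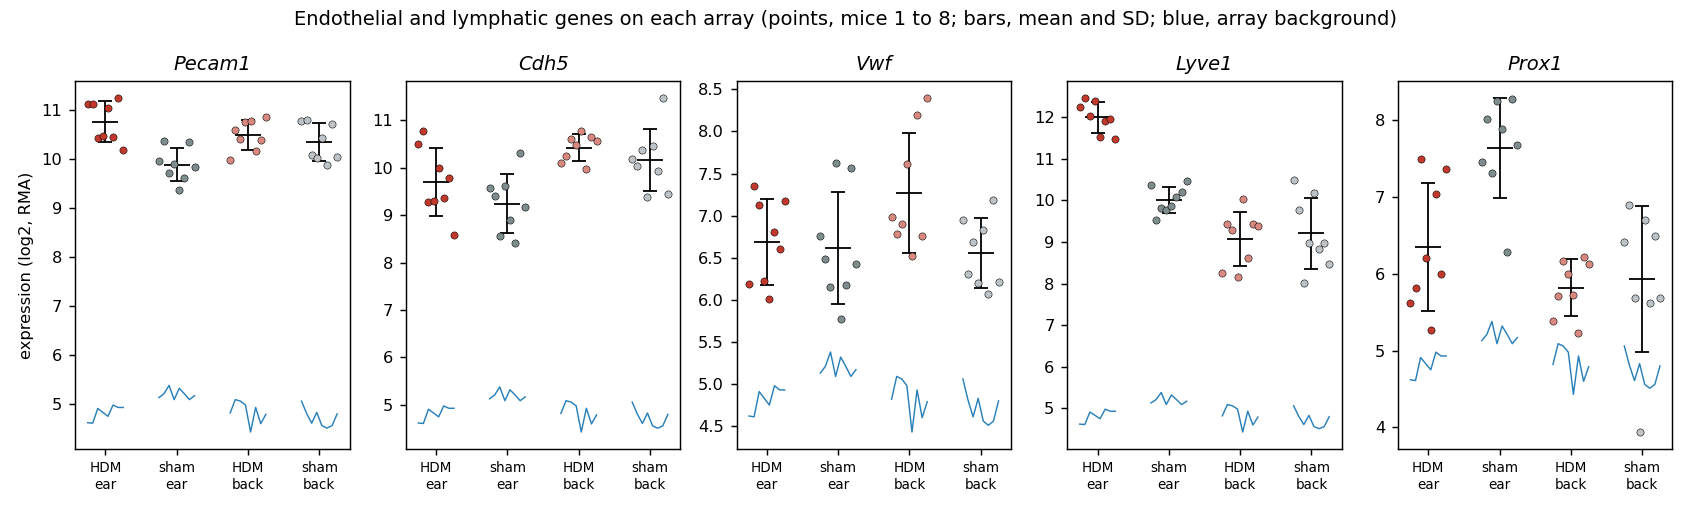
Log2 expression of Pecam1, Cdh5, Vwf, Lyve1 and Prox1 on each of 32 arrays, with points for mice 1 to 8, black bars for mean and SD, and blue lines for array background where in view. Lyve1 in HDM ear lies above every other array, and Prox1 in HDM ear lies mostly below sham ear.

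The pair of lymphatic genes moved in opposite directions in ear. Lyve1 held 11.48 to 12.47 in HDM ears (median 11.98) and 9.53 to 10.47 in sham ears (median 9.98), and the groups were more than 1 log2 unit apart at their closest. It rose by 1.99 ± 0.28 (3.97-fold, adjusted p = 2.21e-06). Prox1 held 5.27 to 7.49 in HDM ears (median 6.10) and 6.28 to 8.27 in sham ears (median 7.78). The log2 difference was -1.29 ± 0.35 (adjusted p = 0.00408), and all HDM ears lay below the sham ear mean of 7.64. All 12 skeletal muscle markers also fell in ear, as did 10 of 14 cartilage and 11 of 12 adipocyte markers. Mice 3, 4, 6 and 8, with the highest Prox1 of the HDM ears, had muscle marker means of 9.91 to 10.90. In mice 1, 2, 5 and 7 these means were 8.52 to 9.76. In the same order cartilage marker means were 6.81 to 7.31 and 6.03 to 6.37, and adipocyte marker means 8.51 to 8.91 and 7.64 to 7.78. The part of tissue makeup in the Prox1 fall was not tested. The SD of Lyve1 was 0.37 in HDM and 0.32 in sham ears.

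The other lymphatic genes on the list did not all follow either of them. Of 16 measured, 4 rose and 2 fell in ear, and their median difference was 0.23, against -0.02 over all rows. Flt4, the VEGF-C receptor of lymphatic endothelium, differed by 0.13 ± 0.22 (adjusted p = 0.701), and Ccl21a, a chemokine of lymphatic vessels, by 0.23 ± 0.25 (adjusted p = 0.542). Mmrn1, a multimerin gene of lymphatic endothelium and platelets, fell by 0.71 ± 0.26 (adjusted p = 0.0365), and Reln differed by -0.66 ± 0.29 (adjusted p = 0.089). Pdpn, which encodes podoplanin of lymphatic vessels but also of keratinocytes and fibroblasts, rose by 2.68 ± 0.39, and Thy1, also a fibroblast and T cell gene, by 1.22 ± 0.22. Foxc2, a factor of lymphatic valves, was called lower but was below background on all 8 arrays of both ear groups. Flt4, Ccl21a and Reln were picked for this account after their values were seen.

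Macrophage and monocyte markers rose beside Lyve1 in ear, 13 of 15 measured with 0 lower and a median of 2.13. Their mean level ran from 8.85 to 11.24 in HDM ears and from 7.54 to 7.92 in sham ears. Cd14 rose by 4.77 ± 0.75, and Cd163, a receptor of tissue-resident macrophages, by 3.39 ± 0.36. Fcgr1 was below background in all sham ears and at least 6.96-fold higher in HDM ears (adjusted p = 1.92e-06), a bound taken, here and for other such genes, as the HDM ear mean over the mean array background of the sham ears. Mrc1 and Folr2, picked after their values were seen as genes of resident macrophages, rose by 3.31 ± 0.36 and 2.02 ± 0.35. Marco was below background on every array of both ear groups, and Timd4 in sham ears and on 6 of 8 HDM ears. Among HDM ears mouse 2 was highest for both the macrophage mean, at 11.24, and Lyve1, at 12.47. The macrophage mean was lowest in mouse 3 at 8.85, where Lyve1 was 12.02. It was next lowest in mouse 8 at 8.96, where Lyve1 was lowest at 11.48. In mouse 5 the macrophage mean was 10.53 and Lyve1 11.53, and in mouse 4 they were 9.85 and 12.40. In back skin 1 of the 15 macrophage and monocyte markers rose and 1 fell. In sham mice 0 were higher and 6 lower in ear than in back skin (median -0.75), while Lyve1 was higher in ear by 0.80. In HDM mice 7 were higher and 0 lower in ear, and Lyve1 was higher by 2.93. The part of these cells in the Lyve1 rise was not tested.

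**Figure D3:**
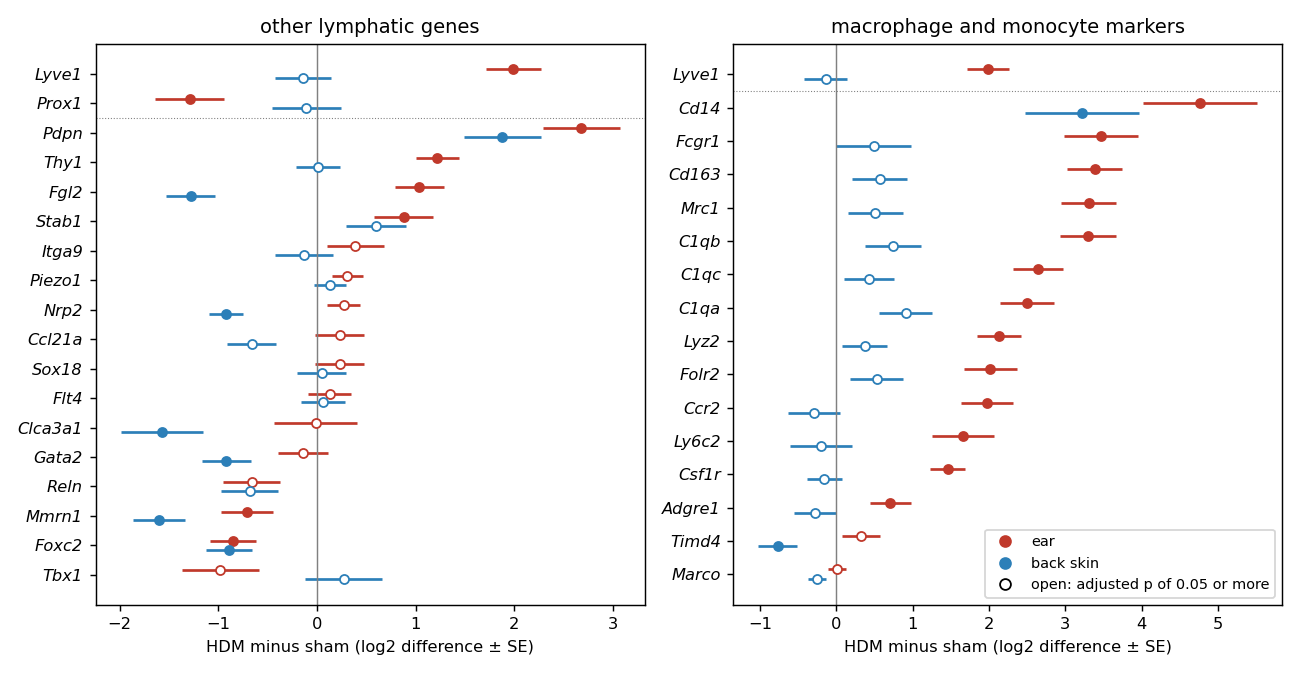
HDM minus sham differences (log2, points with SE bars) in ear and back skin for Lyve1, Prox1 and the other lymphatic genes (left) and for Lyve1 and the macrophage and monocyte markers (right), with filled points where a gene was called. In ear, Flt4 and Ccl21a sit near 0 between Lyve1 and Prox1, and 13 of 15 macrophage markers are called higher.

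In back skin 1 of the 10 genes was called, against 14.7% of all rows (6.18% higher, 8.56% lower), and Selp was that gene. No member's groups were free of overlap there, as were those of 1.83% of rows upward and 2.33% downward. Of the called rows 41.9% were higher, or 63.6% with array medians made equal. The median difference was 0.20 over the 10 genes and 0.01 over all rows. Selp ran from 7.12 over 7.84 to 9.35 in HDM and from 6.37 over 6.94 to 7.31 in sham back skin, with HDM mice 5 and 8 highest at 9.35 and 9.02 and the groups overlapping. It rose by 1.13 ± 0.36 (2.19-fold, adjusted p = 0.0314). The call was lost without any 1 of 5 arrays, with adjusted p = 0.0805, 0.0548 and 0.0707 without HDM mouse 5, 6 or 8, and 0.0529 and 0.0599 without sham mouse 3 or 8.

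Sele in back skin ran from 4.07 over 5.44 to 6.49 in HDM mice, 5 of 8 above background, and from 3.73 over 4.32 to 6.68 in sham mice, 2 of 8 above background. The difference was 0.72 ± 0.41 (adjusted p = 0.258). Sham mice 1 and 2 held the highest sham levels of Sele, 5.73 and 6.68 against 3.73 to 4.55 on the other 6 arrays. Icam1 on the same 2 arrays was 9.22 and 9.93, against 7.91 to 8.70 on the other 6. Those arrays also stood apart on the NF-kappaB pathway list, with means of 9.82 and 10.15 against 8.17 to 8.51, and on the neutrophil markers, with 6.52 and 6.62 against 4.79 to 5.42. Without them Sele was called higher in HDM back skin by 1.23 (adjusted p = 0.0241), and Selp by 1.21 (adjusted p = 0.0408). The labels give no reason to leave these arrays out. Dropping the 2 highest sham values of a gene raises its difference in itself, so this fit does not show a Sele rise.

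Icam1 averaged 8.55 ± 0.33 in HDM and 8.61 ± 0.68 in sham back skin (SD), a difference of -0.06 ± 0.27 (SE, interval -0.60 to 0.49), and 0.26 without sham mice 1 and 2. Vcam1 differed by 0.66 ± 0.49, with 6.35 ± 0.59 in HDM and 5.69 ± 0.86 in sham mice. Ackr1 differed by -0.50 ± 0.32, with a range of 5.93 to 7.41 in HDM mice and of 6.10 to 8.37 in sham mice. Vwf had 7.27 ± 0.71 in HDM and 6.56 ± 0.41 in sham back skin, and HDM mice 6 and 8 were highest at 8.20 and 8.40. Its difference of 0.71 ± 0.28 was not called (adjusted p = 0.0861). With array medians made equal it was 0.84 (adjusted p = 0.0328), and with array weights 0.85 (0.0351).

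Pecam1, Cdh5, Lyve1 and Prox1 were not called in back skin. Their differences were 0.15 ± 0.18, 0.26 ± 0.28, -0.14 ± 0.28 and -0.11 ± 0.35, and the 95% intervals reached at most 0.84 upward (Cdh5) and -0.82 downward (Prox1). Lyve1 ran from 8.16 to 10.03 in HDM and from 8.02 to 10.48 in sham back skin. Of the 16 other lymphatic genes 6 fell and 1 rose there, with a median of -0.40 against 0.01 over all rows, and of those that fell Foxc2 was above background on 0 of 8 HDM and 4 of 8 sham arrays. Mmrn1 fell by 1.60 ± 0.26 (adjusted p = 5.11e-05), Clca3a1 by 1.57 ± 0.42 and Fgl2 by 1.28 ± 0.25, and Pdpn rose by 1.88 ± 0.39. Fgl2 rose by 1.04 ± 0.25 in ear, and the difference between sites was 2.32 ± 0.36 (adjusted p = 9.88e-05).

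**Figure D4:**
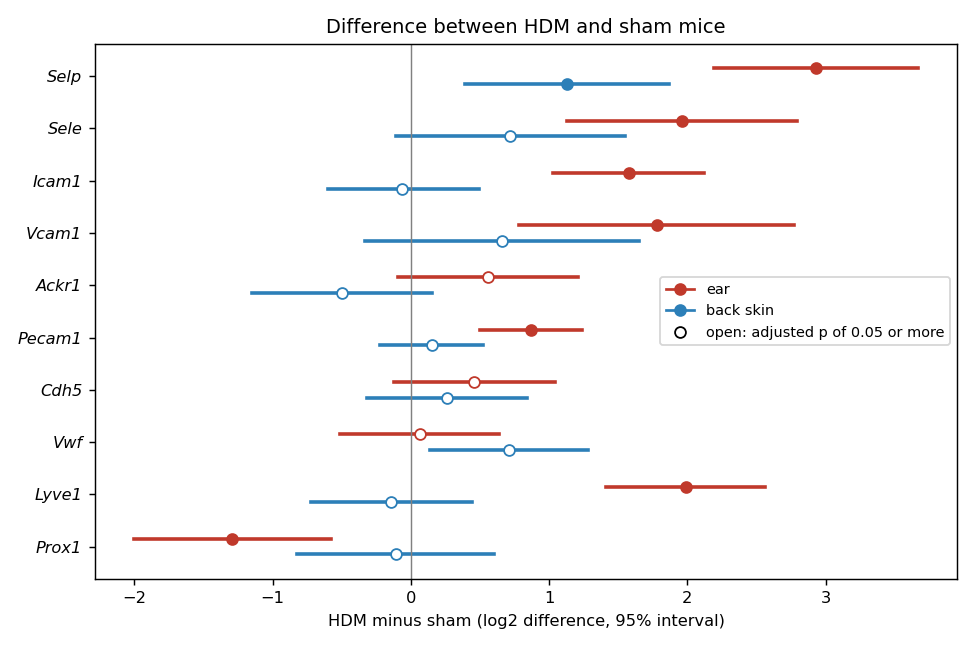
HDM minus sham differences (log2) of the 10 genes in ear and back skin, with 95% intervals, filled where called. Ear points exceed back skin points for Selp, Sele, Icam1, Vcam1, Ackr1, Pecam1, Cdh5 and Lyve1, and lie below them for Vwf and Prox1.

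The HDM effect in ear was set against that in back skin with the interaction term of the same fit. It was larger in ear for Lyve1 by 2.13 ± 0.40 (adjusted p = 0.000803), for Selp by 1.80 ± 0.51 (adjusted p = 0.0213) and for Icam1 by 1.63 ± 0.38 (adjusted p = 0.00495). These 3 of 10 compare with 10.1% of all rows called, 6.77% upward and 3.37% downward, and 66.8% of the called rows were higher, or 45.8% with array medians made equal. With array weights Selp missed the threshold (1.48, adjusted p = 0.0519). Without the sham back skin arrays of mice 1 and 2, the difference of effects was 1.31 for Icam1, 1.73 for Selp and 1.82 for Lyve1, each called. It was not called for Sele (1.24 ± 0.58), Ackr1 (1.06 ± 0.45), Vcam1 (1.12 ± 0.69), Pecam1 (0.72 ± 0.26, adjusted p = 0.0688) or Prox1 (-1.18 ± 0.49, adjusted p = 0.126), so a larger ear effect was not shown for them. Vwf at -0.65 ± 0.40 and Cdh5 at 0.20 ± 0.40 were not called either.

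Among sham mice, ear was set against back skin to ask how the sites differ at baseline. The comparisons between sites use the same arrays as those of HDM with sham mice, so they are not independent of them. Prox1 was higher in ear, 6.28 to 8.27 against 3.94 to 6.90 in back skin, by 1.71 ± 0.35 (3.27-fold, adjusted p = 0.000253), and Lyve1 was higher by 0.80 ± 0.28 (adjusted p = 0.0306). The Lyve1 call was lost without any 1 of 7 arrays (adjusted p up to 0.0862 without sham back skin mouse 3). Selp was lower in ear, 4.71 to 6.21 against 6.37 to 7.31, with no overlap, a gap that 4.14% of all rows showed downward and 4.40% upward. The Selp difference was -1.50 ± 0.36 (adjusted p = 0.00172) and that of Cdh5 -0.92 ± 0.28 (adjusted p = 0.0129). The 2 genes higher and 2 lower compare with 29.7% of all rows called, 15.6% higher and 14.1% lower. Of the called rows 52.6% were higher, or 67.3% with array medians made equal. Pecam1 at -0.46 ± 0.18 (adjusted p = 0.0571) and Icam1 at -0.62 ± 0.27 (adjusted p = 0.0797) lay close to the threshold.

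In HDM mice 5 of the 10 genes were higher in ear than in back skin and 0 lower, where 28.0% of all rows were called, 16.8% higher and 11.2% lower. Lyve1 was higher by 2.93 ± 0.28 (7.61-fold, adjusted p = 1.01e-09) with no overlap, as 4.22% of all rows were (3.70% lower). Ackr1 was higher by 1.50 ± 0.32 (adjusted p = 0.000481), with 8.17 ± 0.91 in HDM ears and 6.67 ± 0.46 in HDM back skin. Sele was higher by 1.22 ± 0.41 (adjusted p = 0.0228), Icam1 by 1.01 ± 0.27 (0.00389) and Vcam1 by 1.28 ± 0.49 (0.0476). The Vcam1 call was lost without any 1 of 21 arrays (adjusted p up to 0.137, without HDM ear mouse 2, when the difference was 0.85) and when only the HDM groups were fitted (0.115). The Sele call was lost without any 1 of 4 arrays, HDM back skin mouse 1 or 7 or HDM ear mouse 1 or 7 (adjusted p up to 0.0607). Selp, lower in sham ear than in sham back skin, differed by 0.31 ± 0.36 between the HDM sites. Cdh5 differed by -0.72 ± 0.28 (adjusted p = 0.0558).

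Ranked by mean level over the 4 groups, HDM ear stood highest for Selp, Sele, Icam1, Vcam1, Ackr1, Pecam1 and Lyve1. It was not separated from its neighbour HDM back skin for Selp (0.31 ± 0.36, adjusted p = 0.591) or Pecam1 (0.27 ± 0.18, adjusted p = 0.303), or from sham ear for Ackr1 (0.56 ± 0.32). HDM back skin stood highest for Cdh5, at 10.42 ± 0.28, and for Vwf, at 7.27 ± 0.71, with no call against the next group, sham back skin for Cdh5 and HDM ear for Vwf (-0.59 ± 0.28, ear minus back skin). Prox1 stood highest in sham ear, with means of 6.35 ± 0.84 in HDM ear, 7.64 ± 0.65 in sham ear, 5.82 ± 0.37 in HDM back skin and 5.93 ± 0.95 in sham back skin. For Lyve1 the means were 12.00 ± 0.37, 10.01 ± 0.32, 9.07 ± 0.66 and 9.21 ± 0.85 in the same order. For Lyve1, Prox1, Icam1, Cdh5, Pecam1, Ackr1 and Sele the HDM and sham back skin groups were neighbours in rank, and no difference was called. Likewise for Sele and Vcam1 the sham groups of ear and back skin were neighbours, differing by -0.02 ± 0.41 and 0.16 ± 0.49. They were also neighbours without a call for Vwf (0.06 ± 0.28), Ackr1 (0.44 ± 0.32) and Pecam1 (-0.46 ± 0.18).

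Within HDM ears the arrays of mice 1, 2, 5 and 7 were the 4 highest for Selp, Icam1, Vcam1, Pecam1 and Cdh5, and the 4 lowest for Prox1. The share of all rows with this split was not counted. For Selp they held 8.95 to 10.01 and the other 4 mice 6.98 to 7.83. For Cdh5 they held 9.78 to 10.78 and the others 8.58 to 9.36, although its group difference was not called. For Prox1 they held 5.27 to 6.00 and the others 6.20 to 7.49. Ackr1 ran otherwise, with its lowest values in mice 2, 1 and 5 at 6.57, 7.42 and 7.63 and its highest in mouse 8 at 9.40. Lyve1 was high in all 8, 1.47 to 2.46 above the sham ear mean. The split was not particular to these genes. The neutrophil marker mean was 10.52 to 11.48 in mice 1, 2, 5 and 7 and 7.06 to 8.46 in mice 3, 4, 6 and 8. In the same order the pan-leukocyte mean was 10.68 to 11.90 and 9.13 to 9.65. The adipocyte mean was 7.64 to 7.78 and 8.51 to 8.91. The labels give no reason for the difference between mice.

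**Figure D5:**
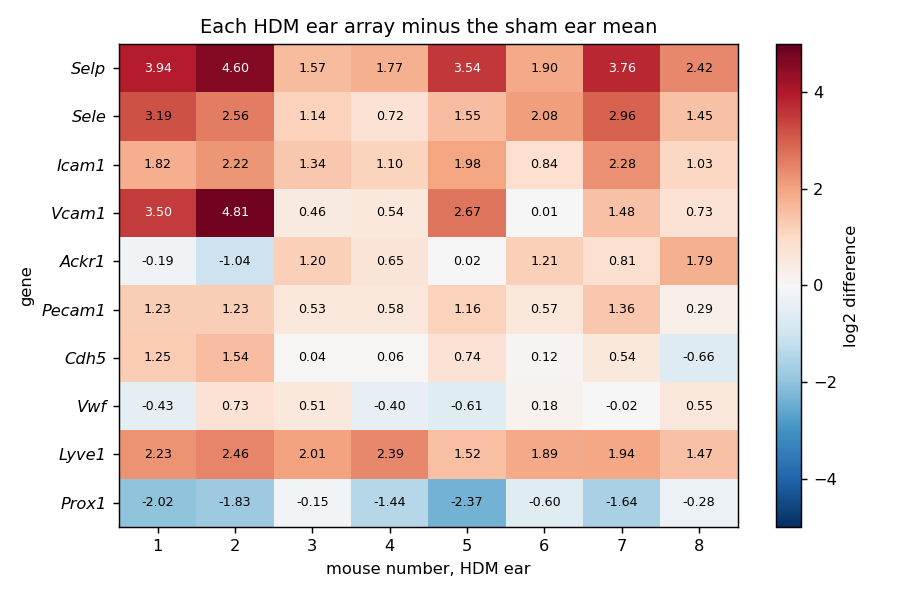
Each HDM ear array minus the sham ear mean (log2) for the 10 genes, by mouse number. Mice 1, 2, 5 and 7 show the largest positive values for Selp, Icam1, Vcam1, Pecam1 and Cdh5 and the most negative for Prox1, while Lyve1 is positive throughout.

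Of 13 measured leukocyte partners of the adhesion molecules 6 rose in ear, 0 fell and the other 7 were not called, with a median of 0.82. Itgam and Itgb2, the chains of Mac-1, rose by 3.15 ± 0.51 and 2.82 ± 0.38, and Selplg, the main ligand of P-selectin, by 2.81 ± 0.48. Itgal, the alpha chain of LFA-1, was below background in all sham ears and on average at least 3.03-fold higher in HDM ears (adjusted p = 0.000122), which ran from 5.22 to 8.68. Itga4, the alpha chain of VLA-4 that binds VCAM-1, differed by 0.34 ± 0.27 (adjusted p = 0.388) in ear, and fell by 1.10 ± 0.27 in back skin (adjusted p = 0.00484). It was the 1 called of the 13 in back skin. All 10 pan-leukocyte markers were called higher in ear, though Was was above background on 1 of 8 HDM ears and on 0 of 8 sham ears, and the mean level of the list was 9.13 to 11.90 in HDM and 7.82 to 8.43 in sham ears. In back skin 0 of these 10 were called. Neutrophil markers did rise there, 7 of 11 measured with Mpo lower, and their mean level was 7.88 to 9.16 in HDM and 4.79 to 6.62 in sham back skin, without overlap. Csf3r, the G-CSF receptor gene, rose by 4.38 ± 0.82 in back skin (adjusted p = 0.000335), and Mpo was below background on all HDM arrays. In ear 8 of the 11 rose, with Mpo again lower. The part of neutrophils in the Selp rise at either site was not tested. Leukocytes express Icam1 and Pecam1 as well, and their part in these rises was not tested.

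Cytokines that induce adhesion molecules, with their receptors, rose in ear in 17 of 21 measured genes and in back skin in 5 of 21, with 0 lower at either site. Tnf rose by 2.52 ± 0.40 in ear and differed by 0.45 in back skin, where it was not called, and the difference between sites was 2.07 ± 0.57 (adjusted p = 0.0173). Il1b was below background in all sham ears and on average at least 64.9-fold higher in HDM ears (adjusted p = 3.09e-07). Its HDM ear levels ran from 7.20 to 14.67, and it rose by 3.84 ± 0.88 in back skin. Il4ra, a receptor chain for IL-4 and IL-13, rose by 3.99 ± 0.40 in ear and by 1.54 ± 0.40 in back skin, while Il4 and Il13 were below background in every group. Of 18 NF-kappaB pathway genes 13 rose in ear and 1 in back skin, with none lower and medians of 1.47 and 0.12. Nfkbia and Tnfaip3, feedback inhibitors of the pathway, rose by 1.44 ± 0.31 and 1.45 ± 0.31 in ear.

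Among the other endothelial genes, of 27 measured, 5 rose and 3 fell in ear with a median of 0.21. In back skin 3 rose and 3 fell, with a median of -0.05. Over all rows 16.4% were higher and 15.5% lower in ear, and 6.18% and 8.56% in back skin, so these counts lie near those shares. The mean level of the list ran from 6.99 to 7.57 in HDM and from 6.75 to 7.16 in sham ears. In ear Ecscr, an endothelial cell surface protein, rose by 2.12 ± 0.38, Eng, the endoglin gene, by 1.79 ± 0.26 and Plvap, of fenestrae and caveolae, by 1.78 ± 0.29. Tek, the angiopoietin receptor TIE2, fell by 0.74 ± 0.20, the transcription factor gene Erg by 0.69 ± 0.21 and Cd34 by 0.53 ± 0.16. Angpt2, a TIE2 ligand stored in Weibel-Palade bodies with von Willebrand factor and P-selectin, rose by 1.28 ± 0.28 in ear (adjusted p = 0.000493). In back skin Kdr, the main VEGF receptor, fell by 1.05 ± 0.25, Flt1 rose by 1.08 ± 0.33 and Vegfa by 1.17 ± 0.26.

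Platelets also carry P-selectin, PECAM-1 and von Willebrand factor. Of 9 platelet and megakaryocyte markers 2 were called higher in ear and 0 were called in back skin. Pf4 rose by 2.57 ± 0.37, while Ppbp was above background on 4 of 8 HDM ears and on 0 of 8 sham ears, so no fold is given. Itga2b, the platelet integrin chain, differed by -0.03 ± 0.21 in ear, and the defining markers Gp5, Gp6, Treml1 and Tubb1 were below background on all 16 ear arrays. The mean level of the list ran from 4.47 to 5.23 in HDM and from 4.30 to 4.62 in sham ears, close to background. Of 12 pericyte and smooth muscle markers 3 fell in ear, among them Abcc9 by 1.58 ± 0.34 and Cspg4 by 1.25 ± 0.32, and Acta2 rose by 1.15 ± 0.20.

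Skin and ear labels matched their markers. Keratinocyte markers had mean levels of 15.35 to 16.60 over all arrays, and cartilage markers 6.03 to 7.31 in HDM ears, 7.54 to 7.90 in sham ears and 4.39 to 4.94 in back skin, though Col2a1 and Matn1 were below background in every group. The muscle marker mean was 8.52 to 10.90 in HDM ears and 11.55 to 13.64 in sham ears, and the adipocyte mean 7.64 to 8.91 and 9.44 to 9.95. With both means as covariates, whose ranges do not overlap between HDM and sham ears, 52 rows were called there in place of 7076. Of the 10 genes Ackr1 alone was then called, higher by 2.02 (adjusted p = 0.017), and Selp was 1.51 (adjusted p = 0.477) and Lyve1 2.11 (0.0973). In back skin Selp was 0.15 (adjusted p = 0.965). There 8 of 12 adipocyte markers fell and 0 rose, and their mean was 10.07 to 10.95 in HDM and 11.18 to 12.14 in sham back skin, also without overlap. At both sites agent and tissue makeup cannot be told apart by such a fit.

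The genes most like each member were taken by Pearson correlation over the 32 arrays among 12368 genes, as a description across 4 groups that differ in tissue and agent. For Selp they were Il4ra (0.93), Slc7a11 and Capn2 (both 0.91). For Icam1 they were Havcr2 (0.93), Laptm5 (0.92) and Apbb1ip (0.89), and for Pecam1 Lcp1, Rac2 (both 0.89) and Mmp19 (0.88), of which Laptm5 and Lcp1 are leukocyte genes. Lyve1 was nearest to Slc29a2 (0.91), Plpp6 and H13 (both 0.89), Prox1 to Mras (0.88), Slc43a1 and Neu3 (both 0.86), and Ackr1 to Vat1 (0.84), Sdr42e1 (0.81) and Sh3rf3 (0.80). Vcam1 was nearest to Ripor2, Lum (both 0.88) and Trim30b (0.85), Sele to Lilr4b, Lilrb4a (both 0.86) and Pitpna (0.85), Cdh5 to Inhba (0.82), Acp5 and Tcn2 (both 0.81). Vwf had the weakest match, Rundc3a at 0.63. With group means removed, Sele was nearest to Ptgs2 (0.75) and Il6 (0.74), and Cdh5 and Pecam1 had a correlation of 0.72 with each other.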

How the data were processed

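RNA from 8 mm punches of ear and back skin, 100 ng per sample, was measured on 32 single-sample Affymetrix arrays, which the series names Mouse Clariom D. The authors deposited log2 values, for which the submitters' processing notes name RMA and the Transcriptome Analysis Console. Versions of these tools and the genome build were not given in the sources used here. Values ran from 1.71 to 19.93, wide for RMA, and a later rescaling could not be told from the file. If there was one, folds would not be true folds while directions would hold.

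The 6640 control rows were left out and the other 22206 rows tested. The background of an array is the median of its 5222 negative control rows (4.43 to 5.38), and 54.4% to 62.3% of tested rows lay above it. It was 4.61 to 4.98 in HDM ears and 5.09 to 5.38 in sham ears, without overlap. Counts above background, floored differences and bounds on folds in ear thus use a higher cut-off in sham than in HDM ears. Gene names come from the platform annotation, through Entrez IDs. Group means over all 32 arrays were fitted with limma 3.58.1 in R 4.3.3 (lmFit, eBayes, two-sided, no block, 32.1 degrees of freedom), checked on simulated data. One spread per row is pooled over the groups, although Selp and Vcam1 varied more in HDM ears. Titles number 1 mouse per array. Mouse numbers recur in every group and were not treated as pairs. The number of arrays limits precision. Named genes were the 10 members, the genes with the largest called rises and falls of each list with the ligands, receptors and regulators of the members, and the 3 genes most like each member, beside marker genes below background and a few genes said to be picked later. The members and lists were chosen with earlier results of these data known, so no list is tested. The effects of 10 other settings are given at the end, as are those of 32 fits without 1 array each, added after the data were seen. A setting among the 10 leaves out sham back skin arrays that the labels do not set apart, so it was not chosen blind to the data.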

Additional observations from a re-analysis of the deposited data

Results flagged for a closer look

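The HDM effect differed between ear and back skin by the interaction term for 3 of the 10 genes, Lyve1 by 2.13, Selp by 1.80 and Icam1 by 1.63 on the log2 scale, ear minus back skin. In 40 groups of 8 arrays, 2 arrays stood apart from the rest of their group, about the number that chance gives at 1 in 20. Icam1 in sham ear mouse 3 was 6.68, with the next lowest array at 7.94. Prox1 in sham back skin mouse 4 was 3.94, with the next lowest at 5.62. No call of either gene in the comparison of HDM with sham mice changed without these arrays.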

How the results depend on the processing

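Of 490 results of single members under 10 other settings, 453 kept their side of the threshold and, where called, their direction. With muscle and adipocyte means as covariates, 97 rows were called for HDM in back skin, 52 in ear, 459 for the difference of effects and 3340 for HDM ear against HDM back skin, with 0, 1, 1 and 3 members among them. In that fit Vcam1 turned to -0.32 and Prox1 to 0.37 in ear, and Vcam1 to -1.71 between the HDM sites. Both means separate HDM from sham ears without overlap, and the adipocyte mean does so in back skin, so this fit has little to tell the groups apart by. Raising values under background to the array background called 15862 rows in ear, 12103 for the difference of effects (5 members) and 15246 for sham ear against sham back skin. The 6456 rows below background on all arrays then carry only the array backgrounds. These were higher in every sham ear than in any HDM ear or sham back skin array. Of the rows called, 12221 were lower in HDM ears and 12119 higher in sham ear than in sham back skin. With so many rows called, adjusted p values and member counts of this fit cannot be set against the main ones. Members called in back skin were 2 without sham mice 1 and 2, with array medians made equal and with array weights. Equal array medians moved the median of all rows from 0.01 to 0.13 in back skin, from -0.01 to -0.13 for the difference of effects and from 0.04 to 0.16 for sham ear against sham back skin, and the percentage of higher among called rows from 41.9% to 63.6%, 66.8% to 45.8% and 52.6% to 67.3%.

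Leaving out each array in turn, rows called ranged from 2699 to 3422 in back skin, 6273 to 7411 in ear, 1817 to 2618 for the difference of effects, 6102 to 6684 between sham sites and 5801 to 6296 between HDM sites. Members called ranged from 0 to 1, 7 to 8, 3 to 4, 3 to 5 and 3 to 5. The replicate block by mouse number called 3268, 7033, 2235, 6561 and 6188 rows, with Pecam1 called for the difference of effects (adjusted p = 0.041) and between sham sites (0.0324), Icam1 between sham sites (0.049) and Cdh5 between HDM sites (0.0302). The block changed no other member's call. A random block by agent and mouse number called 3276, 7078, 2325, 6663 and 6284 rows and changed no member's call. With rows above background on fewer than 8 arrays left out, Cdh5 was called between HDM sites (adjusted p = 0.0395) and Pecam1 between sham sites (0.0449). Between HDM sites Cdh5 was also called with only the groups compared (0.0433) and with array weights (0.0232). With the background as a floor, Pecam1 (0.0248) and Icam1 (0.0408) were called between sham sites. Same-numbered arrays deviated together by a correlation over 0.1 in 1 of 8 HDM pairs and 0 of 8 sham pairs of ear and back skin, and in 3 of 8 back skin and 1 of 8 ear pairs of HDM and sham mice, so the numbers are not shown to pair samples. Fitting only the groups compared could not be done for the difference of effects, and the mean of all rows of a symbol left members as they were, since each had 1 row.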
